A study of Brassica napus with 12 samples.

Results

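The difference between 2 responses to submergence was described: the log2 change of expression in resistant rapeseed under water minus the log2 change in susceptible rapeseed. Rapeseed, *Brassica napus*, is an oil crop that carries an A and a C subgenome. All 12 libraries of the series enter this difference, and it was computed for the 57391 of 109614 listed genes that reached at least 1 RPKM (a read density that allows for gene length and sequencing depth) in at least 3 libraries. A further 31117 genes were above 0 but under this minimum, and 21106 were listed at 0 in every library. The libraries form 4 groups of 3: resistant control, resistant submerged, susceptible control and susceptible submerged. Seedlings were germinated on moist paper at 25 °C by day and 22 °C by night with 16 h of light and 8 h of dark, and were taken when the cotyledons had flattened and the true leaf was just forming. Submerged groups spent 24 h fully under distilled water, and controls stayed under normal conditions. Each pool mixed equal amounts of seedlings of 5 germplasm, so that a replicate is a mixture, and no result can be given to a single germplasm or to resistance apart from the germplasm chosen. Whole seedlings were used, so fewer cells of a type and less RNA per cell cannot be told apart. No markers of tissue could be checked, because none of the identifiers was paired with a gene name in the sources used here.

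Submergence cuts a plant off from gas exchange and dims its light. Plants sense the fall in oxygen through transcription factors of the ethylene response factor family that are degraded when oxygen is present, and they sense trapped ethylene through its receptors. Known targets include genes of alcoholic fermentation, sugar breakdown and the scavenging of reactive oxygen, while costly processes such as ribosome building and cell wall synthesis are turned down. Cultivars that differ in tolerance can differ in how strongly such genes react, or in the level from which they start, and the difference of responses measures both without separating them. It is positive where the resistant pool rose more or fell less, and negative where it rose less or fell more. The same number is reached by subtracting the pool difference in controls (resistant minus susceptible) from the pool difference under water, which allows each gene to be placed on the control or the submerged side.

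At most genes the difference between the pools was small. It had a median of -0.0063 log2 and an SD of 0.438 over the tested genes, against an SD of 0.714 for the response of the resistant pool and 0.712 for that of the susceptible pool. Its middle quartiles ran from -0.25 to 0.22 log2, its 1st and 99th percentiles were -1.17 and 1.22, and 81.7% of genes lay within 0.5 log2 of 0. Signs were nearly balanced, with 28252 genes above and 29139 below 0. The standard error of a gene's difference had a median of 0.240 log2, and 44.8% of genes differed from 0 by more than their own standard error. Many genes would pass this mark by the spread between replicates alone, so the share does not count genes that differ between the pools. The difference was at least 1 log2 (2-fold) in size for 1971 genes, or 3.43% of those tested, with 1042 (1.82%) positive and 929 (1.62%) negative. It reached 2 log2 (4-fold) for 114 genes above and 61 below 0.

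**Figure D1:**
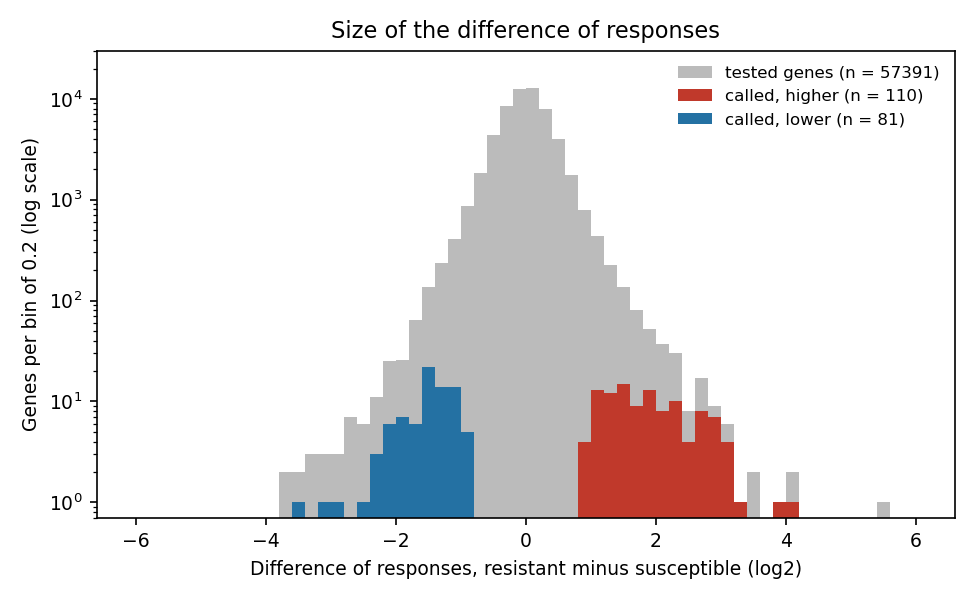
Histogram of the difference of responses (x axis, log2, resistant minus susceptible) over 57391 tested genes, with the number of genes per bin on a log scale (y axis). The 110 called genes with a positive difference are red and the 81 with a negative one are blue. They lie beyond 0.857 log2 on either side, and the tails also hold uncalled genes.

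Expression was partitioned into submergence, pool, their interaction and the spread between replicates. Over all tested genes, submergence took 48.3% of the sum of squares of log2(RPKM + 1), the pool 22.3%, the difference of responses 4.82% and the replicates 24.7%. Per degree of freedom, the difference of responses had a mean square 1.56 times that of replicates, whereas submergence had 15.7 times and the pool 7.22 times. At 45.5% of genes the interaction mean square was above the residual one, which also occurs at many genes without any difference of responses. The pooled SD between replicates was 0.304 log2 in resistant controls, 0.255 in resistant submerged, 0.319 in susceptible control and 0.330 in susceptible submerged libraries.

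A difference of responses was called for 191 genes, 0.333% of those tested (limma, Benjamini-Hochberg adjusted p under 0.05, 2-sided). Of these, 110 (0.192% of tested genes) were positive and 81 (0.141%) negative, while 7472 genes (13%) had an unadjusted p under 0.05. Positive calls had a median difference of 1.83 log2 and reached 4.11, and negative calls had a median of -1.48 and reached -3.50. Of the positive calls, 44 were at least 4-fold, and of the negative ones 12. A large estimate alone was not enough: 1789 genes differed by at least 1 log2 without a call, and their median standard error was 0.415 log2 against 0.242 in called genes. The largest estimate in the data, 5.59 log2, was among these uncalled genes. By level of expression, calls made up 0.653% of genes averaging under 1 RPKM, 0.234% of those from 1 to 5 RPKM, 0.249% from 5 to 20 RPKM, 0.617% from 20 to 100 RPKM and 0.849% of the 1060 genes above 100 RPKM. The share at the lowest level was set by the minimum: 24 of its 26 calls were at genes that reached 1 RPKM in the 3 libraries of one group and nowhere else, which had to differ to be tested. Among the other 3506 genes of that level 2 were called (0.0570%). From 1 to 5 RPKM, 9 of the 56 calls were of that kind.

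Which genes were called depended on single libraries. Each of the 191 genes kept its sign when any library was left out, but the median gene kept its call in 3 of the 12 fits, and 17 genes kept it in all 12. The total was 84 genes without resistant control 1, 117 without resistant control 2 and 28 without resistant control 3. It was 28 without resistant submerged 1, 84 without resistant submerged 2 and 53 without resistant submerged 3. Leaving out a susceptible control gave 18 genes for the first library, 343 for the second and 66 for the third. Leaving out a susceptible submerged library gave 42, 118 and 103. The second susceptible control was thus the only library whose removal raised the total, and 173 of the 191 genes were among the 343 called without it.

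**Figure D2:**
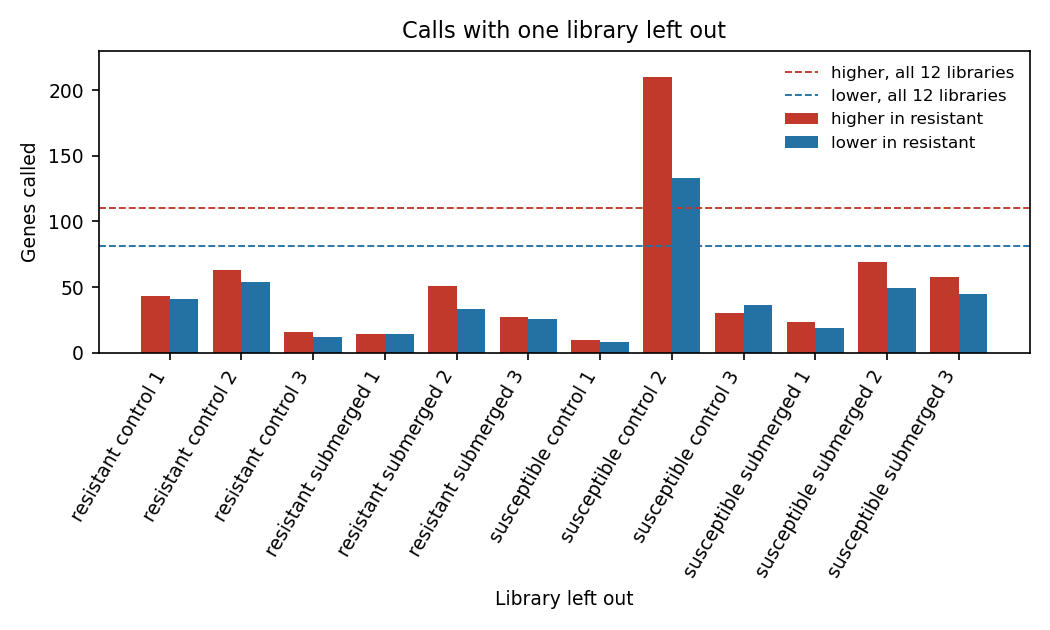
Number of genes with a called difference of responses (y axis) when the library named on the x axis is left out, positive calls in red and negative ones in blue. Dashed lines mark the 110 and 81 calls with all 12 libraries. Without the first susceptible control 10 positive and 8 negative calls were left, and without the second 210 and 133 were made.

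Of the 17 genes called in every fit, 10 were positive and 7 negative, with sizes from 1.36 to 3.25 log2. They held 4 transcripts that the table lists as new genes. At 6 of the 17 the minimum was reached in the 3 libraries of one group only, so that these genes had to differ to be tested, and 4 were listed at 0 in every library of one pool. In 9 of them both groups of one pool averaged under 1 RPKM, so only the other pool expressed the gene above that level in either group. The other 8 genes averaged at least 1 RPKM in a group of each pool, and 6 genes averaged at least 5 RPKM over all libraries. From those 6, the largest differences in each direction are given next with their values in every library.

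BnaA03G0312700ZS, on chromosome A03, was at 2.37, 2.51 and 1.20 RPKM in resistant controls and at 83.6, 41.1 and 62.5 RPKM in resistant submerged libraries. In the susceptible pool it was at 12.6, 12.2 and 15.5 RPKM in controls and at 31.97, 35.2 and 24.2 RPKM under water. None of the 4 groups overlapped another: the resistant pool was the lower one in air and the higher one under water. The gene rose in both pools, by 4.36 ± 0.26 log2 in resistant and 1.11 ± 0.26 in susceptible seedlings (SE; limma adjusted p = 8.81e-07 and 0.00553). The difference of 3.25 ± 0.37 log2 (SE; limma adjusted p = 0.00898) came mainly from the control side, where the resistant minus the susceptible level was -2.28 ± 0.26 log2 (SE), against 0.97 ± 0.26 (SE) under water.

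BnaA05G0438100ZS, on chromosome A05, was at 3.43, 3.27 and 1.60 RPKM in resistant controls and at 47.1, 31.1 and 33.1 RPKM in resistant submerged libraries. The susceptible pool held it at 8.15, 6.96 and 9.45 RPKM in controls and at 9.03, 14.0 and 12.3 RPKM under water. The susceptible groups overlapped, and both lay between the resistant control and the resistant submerged group. It rose in the resistant pool by 3.35 ± 0.24 log2 (SE; limma adjusted p = 2.86e-06), and its estimate in the susceptible pool was 0.46 ± 0.24 (SE; limma adjusted p = 0.139). The difference was 2.89 ± 0.33 log2 (SE; limma adjusted p = 0.0106). The pool difference was -1.32 log2 in controls and 1.57 under water, so that it changed sign and both sides added to the difference of responses.

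BnaC05G0435500ZS, on chromosome C05, had the largest negative difference by the same rule. It was at 11.98, 12.6 and 11.6 RPKM in resistant controls and at 5.65, 6.36 and 6.82 RPKM in resistant submerged libraries. In the susceptible pool it was at 5.02, 4.07 and 5.41 RPKM in controls and at 11.9, 8.03 and 12.4 RPKM under water. The levels of the pools were exchanged: resistant controls resembled susceptible submerged seedlings, with overlapping ranges. It fell by 0.85 log2 in the resistant pool and rose by 1.00 log2 in the susceptible pool (SE 0.16 each; limma adjusted p = 0.00162 and 0.000561), a difference of -1.84 ± 0.22 log2 (SE; limma adjusted p = 0.0124).

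BnaA08G0100000ZS, on chromosome A08, was at 57.2, 54.1 and 52.8 RPKM in resistant controls and at 23.8, 27.0 and 27.4 RPKM in resistant submerged libraries. It was at 31.0, 31.6 and 27.0 RPKM in susceptible controls and at 36.1, 35.7 and 40.3 RPKM in susceptible submerged libraries. Resistant controls were above all other libraries, and the resistant submerged group overlapped the susceptible controls. The gene fell by 1.04 log2 in the resistant pool and rose by 0.31 log2 in the susceptible pool (SE 0.11 each; limma adjusted p = 5.41e-05 and 0.0463). The difference was -1.36 ± 0.16 log2 (SE; limma adjusted p = 0.0124), and the pool difference went from 0.85 log2 in controls to -0.50 under water.

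**Figure D3:**
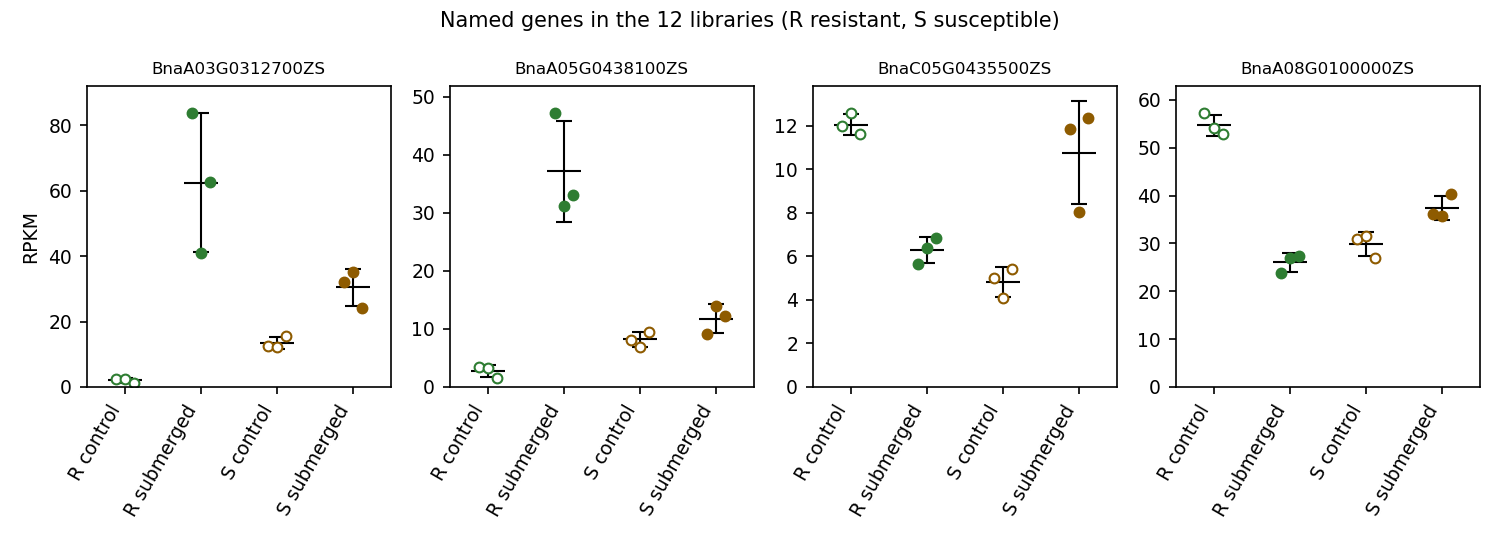
RPKM (y axis, from 0) of the 4 genes in each library, by group (x axis), with the resistant pool in green, the susceptible pool in brown, controls as open and submerged libraries as filled points; bars are the mean and SD of 3 libraries. The first pair of genes rose most in resistant seedlings, to 62.4 and 37.1 RPKM on average, and the second pair fell there, to 6.28 and 26.1 RPKM.

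Direction classes showed how the called genes behaved in each pool. Among the 110 positive calls, both pools had a rising estimate at 44 genes, the resistant pool rose and the susceptible pool fell by estimate at 47, and both fell by estimate at 14, less in the resistant pool. At the remaining 5 the gene was listed at 0 in every resistant library and went down by estimate in the susceptible pool. Among the 81 negative calls, 40 had a falling estimate in the resistant and a rising one in the susceptible pool, 16 fell by estimate in both, 19 rose by estimate in both, and 6 were listed at 0 in every susceptible library. Opposite signs thus occurred at 45.5% of called genes, against 19.1% of all tested genes. Among the 1971 genes that differed by at least 1 log2, called or not, the share was 44.8%. At 4 called genes such opposite estimates were both at least 1 log2 in size. At 59.7% of called genes at least one of the responses was under 0.5 log2 in size, compared with 75.02% over all tested genes. Among the same 1971 genes it was 59.8%, so both shares in called genes were near those of large differences in general. The responses are parts of the difference, so these shares describe the called genes and were not tested.

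The response of the resistant pool was itself called at 38.5% of tested genes (11.9% higher, 26.7% lower), and that of the susceptible pool at 40.6% (12% higher, 28.6% lower). Responses called in opposite directions were found at 15 positive and 16 negative differences. The most frequent combinations were a rise called in the resistant pool with no call in the susceptible one, at 36 positive differences, and a fall called in the resistant pool with no call in the susceptible one, at 29 negative differences. The resistant response was the larger in size at 78 of the 110 positive (70.9%) and at 41 of the 81 negative calls (50.6%). It was the larger at 50.9% of all tested genes and at 46.9% of differences of at least 1 log2, called or not. Scaling the libraries by median ratios shifted the median response of resistant seedlings from -0.22 to -0.09 log2 and that of susceptible ones from -0.19 to -0.03. All 191 genes kept the sign of their difference under this scaling, and opposite signs were then found at 44 positive and 38 negative calls.

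**Figure D4:**
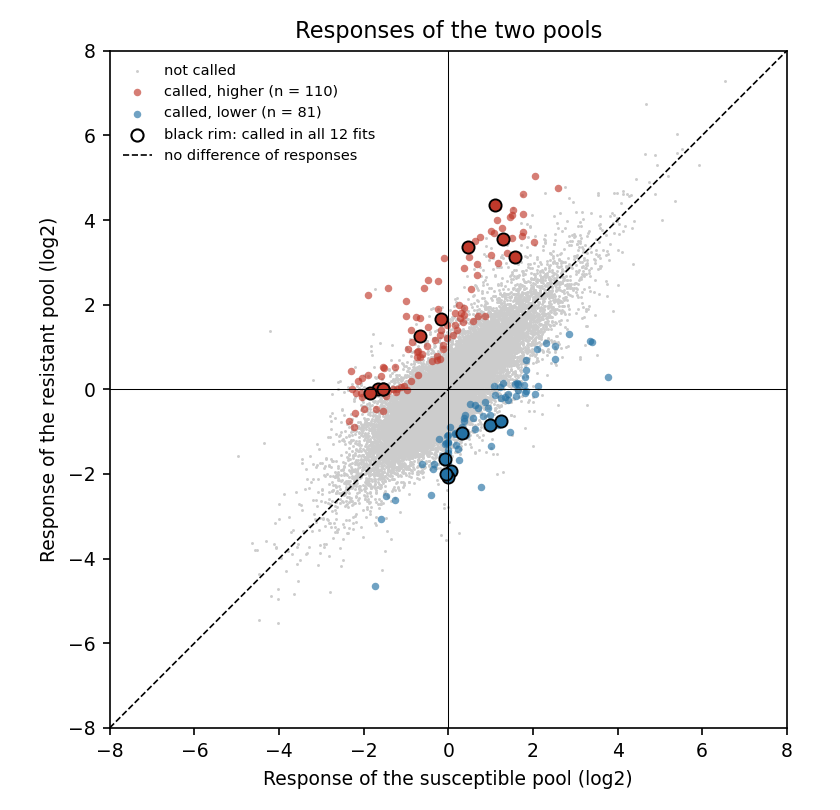
Log2 response of the resistant pool (y axis) against that of the susceptible pool (x axis) for tested genes, with positive calls in red and negative ones in blue. The dashed line marks equal responses, and black rims mark the 17 genes called in every fit with a library left out. Most red points lie in the upper quadrants, where 44 of the 110 have a rise by estimate in both pools and 47 a rise in the resistant pool against a fall in the susceptible one.

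The control level carried the difference more often than the submerged level among called genes. A gene was placed on the control side where the pool difference in controls was at least 2 times that under water in log2 size, and on the submerged side in the converse case. By this division 92 of 191 calls (48.2%; exact 95% binomial interval 40.9 to 55.5) lay on the control side and 56 (29.3%; 23.0 to 36.3) on the submerged side. At a further 40 genes the pool difference crossed from one sign to the other with similar sizes, and at 3 it kept its sign. Over all tested genes, 23.5% lay on the control side and 28.6% on the submerged side. The intervals treat genes as independent and cover counting error only. The control side held 53 of the 110 positive and 39 of the 81 negative calls, and the submerged side 37 and 19.

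The balance depended on which genes were counted. Among the 1971 genes with a difference of at least 1 log2, called or not, 745 (37.8%) lay on the control and 712 (36.1%) on the submerged side. The order of these last shares turned with 9 of the 24 other settings, whereas among called genes the control side was the larger in all 24. The margin among calls was narrow in one of them, with 36.9% against 35.9% without the third susceptible submerged library. It was 66.7% against 5.56% without the first susceptible control, where 18 genes were called.

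The sizes of the pool differences told the same division in another way. In called genes the median size of the pool difference was 1.09 log2 in controls and 0.68 under water, and the one in controls was larger at 119 of 191 genes. Over all tested genes these medians were 0.25 and 0.28 log2. Positive calls went from a median pool difference of -1.12 log2 in controls to 0.69 under water, and negative calls from 1.02 to -0.49. A pool difference was called in controls alone at 82 of the 191 genes, under water alone at 55, in both with the same direction at 23 and in both with opposite directions at 31. Over all tested genes 15.9% had a called pool difference in controls and 16.4% under water: 8.84% in controls alone, 9.31% under water alone, 7.02% in both with the same direction and 0.0784% in both with opposite directions. The same libraries enter both contrasts, which raises such counts by itself.

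**Figure D5:**
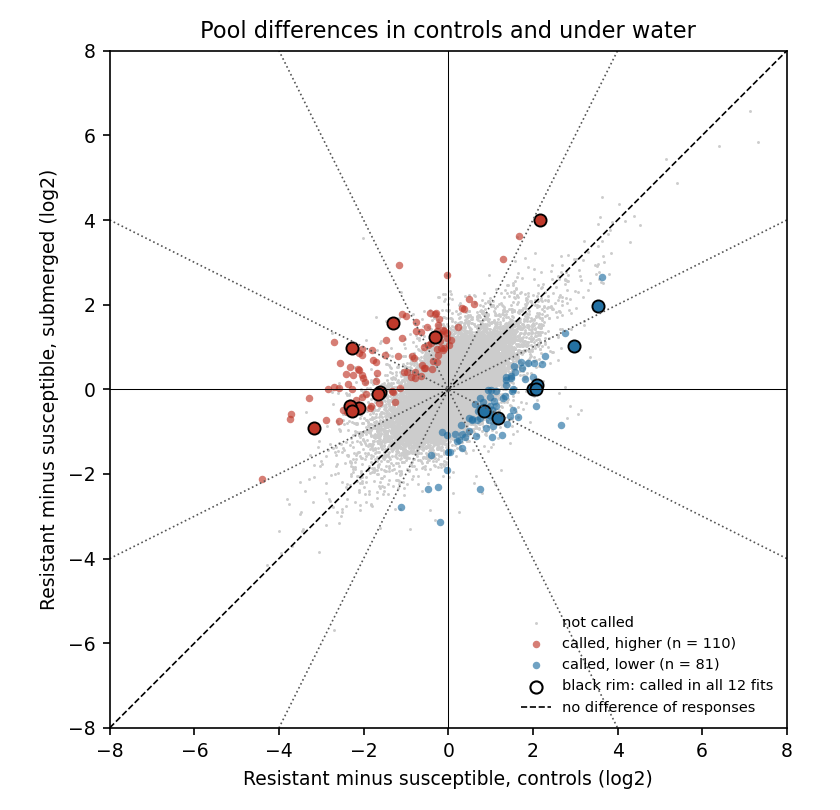
Pool difference (resistant minus susceptible, log2) under water (y axis) against that in controls (x axis). The dashed line marks no difference of responses, and dotted lines mark ratios of 2 between the sizes, so that the sectors around the horizontal axis hold the control side and those around the vertical axis the submerged side. The sectors around the horizontal axis hold 92 of the 191 called genes and those around the vertical axis 56; black rims mark the 17 genes called in every fit.

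A single group stood apart at 67 of the 191 called genes, in that the other 3 group means lay within 1 log2 and the odd one at least 1 log2 from the nearest. Over all tested genes this was found at 1.95%; a group that stands apart in this way gives a difference by itself, so the shares were not tested. The odd group was the resistant control at 22 called genes, 14 times high and 8 times low, and the susceptible control at 16, 13 times high and 3 times low. The resistant submerged group stood apart as high at 11 genes and as low at 1, and the susceptible submerged group as high at 8 and low at 9. Over all tested genes the odd group was the resistant control at 360 (205 high, 155 low) and the susceptible control at 199 (133 high, 66 low). It was the resistant submerged group at 175 (93 high, 82 low) and the susceptible submerged group at 383 (131 high, 252 low). The 33 called genes that reached 1 RPKM in the 3 libraries of one group only could stand apart only as high. The minimum thus favors high groups among calls, and the split into high and low was not tested. At the other 124 called genes no group met this rule.

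Many called genes were expressed weakly in one of the pools. At 47 of the 191 (24.6%) both groups of a pool averaged under 1 RPKM while the other pool did not, against 7.09% of tested genes. The resistant pool was the weak one at 20 and the susceptible pool at 27. Of these, 11 were listed at 0 in all 6 libraries of one pool. At such genes the difference equals, or nearly equals, the response of the other pool, and it was read on a log2(RPKM + 1) scale that shortens changes near 0. The minimum also let in 33 called genes that reached 1 RPKM in the 3 libraries of one group and nowhere else, which had to differ to be tested (17.3% of calls, 0.873% of tested genes). Just inside the minimum, the 1663 genes at 1 RPKM in exactly 3 libraries had a median of 0.741 RPKM over all libraries, and just outside, the 1778 genes at 1 RPKM in 2 libraries had 0.614. Without the genes weak in one pool, 45.8% of the remaining 144 calls lay on the control side and 27.8% on the submerged side.

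Calls with a positive difference were frequent among genes whose mean response over both pools was between 2 and 3 log2. Genes were binned by the mean of their responses, whose sampling error is independent of that of the difference in this balanced design when all groups vary alike. The groups did not vary alike (pooled SD 0.255 to 0.330 log2). A gene that responds in one pool only also has a mean response set by its difference, so the counts per bin were not tested. In the bin from 2 to 3 log2, 22 of 601 genes had a positive and 4 a negative call, 4.33% in all against 0.333% over tested genes. Among the 152 genes of at least 3 log2 there were 3 positive calls and no negative one (1.97%). In the bin from 1 to 2 log2 there were 16 positive and 8 negative calls among 2526 genes. From -2 to -1 log2 there were 10 and 7 among 2744, and in the largest bin, between -0.5 and 0.5 log2, 27 and 26 among 37374. The 152 genes with a mean response of at least 3 log2 had mean responses of 3.75 log2 in resistant and 3.51 log2 in susceptible seedlings, a mean difference of 0.24 ± 0.18 (SE over libraries, n = 3 per group), with 60.5% of genes above 0. This is within 2 standard errors of 0. It was 0.12 without the second susceptible control, 0.40 without the third, 0.37 with quantile normalization and 0.47 with a pseudocount of 0.1. The 66 genes with a mean response of -3 log2 or less had mean responses of -3.66 log2 in resistant and -3.47 in susceptible seedlings, a mean difference of -0.19 ± 0.27 (SE, n = 3 per group). It was -0.30 without the third susceptible control or without the third susceptible submerged library, and -0.29 with quantile normalization. It was nearer to 0 without the second susceptible control (-0.019), the second susceptible submerged (-0.054) or the first resistant control library (-0.079), and with a pseudocount of 0.1 (-0.087). Averaged over these most responsive genes, a difference between the pools was not detectable against the spread between libraries. The bins were chosen after seeing the data.

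Called differences were found on all 19 chromosomes. The A subgenome held 83 of its 25449 tested genes (0.326%) and the C subgenome 88 of 26845 (0.328%). By chromosome the share ran from 0.131% on C05, where all 4 calls were negative, to 0.544% on C02, where 5 were positive and 9 negative. These extremes among the 19 chromosomes rest on 4 calls in 3060 genes and 14 in 2574, against 0.333% of all tested genes. Such small counts were not tested. Transcripts listed as new genes held 18 calls among 3583 (0.502%), and genes on unplaced scaffolds 2 among 1514 (0.132%). A stretch at the start of C02 and one at the start of A02 were chosen with earlier results of these data known, and no other stretch was computed. Over the first 500 tested genes of C02 the mean difference was -0.32 ± 0.11 (SE over libraries, n = 3 per group), relative to the library medians, and 5 of those genes were called, 1 positive and 4 negative. Over the first 500 of A02 it was 0.27 ± 0.06 (SE, n = 3 per group), and none was called. These standard errors do not allow for the choice of the stretches. The median difference of all tested genes of a chromosome, not set relative to library medians, ran from -0.144 log2 on A05 to 0.0991 on A07. It was 0.0233 on A02, -0.0892 on C02 and -0.238 on unplaced scaffolds.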

How the data were processed

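Polyadenylated RNA of 12 rapeseed libraries was sequenced. The authors deposited RPKM values, 1 column per library, with replicates not pooled; HISAT2 and StringTie are named in the submitters' processing notes, while their versions and roles, the build and the gene models go without a statement in the sources used here. Count models need counts and were not applied to RPKM. How the counting treated reads that match both the A and the C copy of a gene is not stated, so levels of single copies are uncertain.

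The deposited RPKM entered as log2(RPKM + 1), with no scaling of libraries, and changes of weakly expressed genes come out too small on this scale. The difference of responses was fitted with limma 3.58.1 (R 4.3.3) on 4 group means with a variance trend (8 residual and 3.35 prior degrees of freedom) and adjusted by Benjamini-Hochberg over 57391 genes. On simulated data (57391 genes, 100 changed by each size, mean of at least 5 RPKM), it recovered 18% of 2-fold and 81% of 4-fold differences, with 9 false calls among 108 (8.33%). The simulated noise was normal, independent between genes and libraries and drawn from the fitted variances, and the expression minimum was not applied again. These rates describe that setting and not the calls in the real libraries. Python 3.11.15 made the counts and plots. Named genes were the largest 2 differences in each direction among genes called in the full and in all 12 left-out fits with a mean of at least 5 RPKM. None of the identifiers matched the 123214 rows of the reference table, so genes are given by identifier only.

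The contrast, classes and rules were chosen with earlier results of these data known. Absolute depth is unknown; the spacing of the lowest values put libraries between 0.639 and 1 of the deepest (65 of 66 pairs of libraries fitted within 0.02 log2). No pair of libraries was identical; at least 99.5% of tested genes differed. The labels call replicates biological, but nothing says that they came from separate cultures or days, so p-values measure the spread between these mixtures. Alternatives were a pseudocount of 0.1, no filter, a filter at a mean of 5 RPKM, array weights, quantile normalization, scaling by median ratios, the replicate number as a block, removal of genes that swing between 0 and at least 5 RPKM within a group, side ratios of 1.5 and 3, and leaving out each library; the removal of genes weak in one pool or at 1 RPKM in one group only, and the bins by mean response, were added after seeing the data.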

Additional observations from a re-analysis of the deposited data

Results flagged for a closer look

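Each of the 4 named genes had a response that differed between the pools by the test of the difference itself (limma, Benjamini-Hochberg adjusted). The difference was 3.25 log2 for BnaA03G0312700ZS (adjusted p = 0.00898, and 0.00711 to 0.0385 over 20 alternatives). It was 2.89 log2 for BnaA05G0438100ZS (adjusted p = 0.0106, and 0.00968 to 0.0490 over 20 alternatives). It was -1.84 log2 for BnaC05G0435500ZS (adjusted p = 0.0124, and 0.00375 to 0.0499 over 20 alternatives). It was -1.36 log2 for BnaA08G0100000ZS (adjusted p = 0.0124, and 0.00743 to 0.0478 over 20 alternatives). The genes were chosen for calls in the full fit and in all 12 fits with a library left out, so their passing any of these is no separate support. The left-out fits are 12 of the 20 alternatives and set the upper end of each range.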

How the results depend on the processing

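With all 12 libraries 110 positive and 81 negative differences were called. Leaving out each library gave 10 to 210 positive and 8 to 133 negative calls. A mean of at least 5 RPKM gave 63 and 44 calls, and a pseudocount of 0.1 gave 47 negative calls. The replicate number as a block gave 23 and 18 calls, 40 of them among the 191. Same-numbered libraries did not deviate together in every pair of groups, so the numbers were not taken to pair the libraries. Deviations from the group means correlated at 0.39 between susceptible control 1 and susceptible submerged 1, and at -0.34 between resistant control 1 and susceptible submerged 1. Differently numbered libraries could also deviate together, with 0.46 between resistant control 3 and susceptible submerged 1. A deviation shared across groups that no label gives was not tested. The other counts of calls stayed within 1.5 times. The control-side share of calls was 57.5% without a filter, 56.0% with a side ratio of 1.5, 36.6% with a ratio of 3 and 36.9% to 66.7% with a library left out. The submerged-side share of calls was 20.6% with a mean of at least 5 RPKM and 5.56% to 35.9% with a library left out. Among differences of at least 1 log2, the control and submerged sides held 31.0% and 41.2% with a pseudocount of 0.1, 34.4% and 39.0% with median ratio scaling, 35.3% and 38.7% with array weights, 43.9% and 41.6% with a ratio of 1.5, and 28.0% and 27.8% with a ratio of 3. The submerged side held 33.0% with quantile normalization. With a library left out the sides ran from 32.8% to 46.4% and from 28.2% to 42.3%. The share of variance in the interaction stayed between 4.43% and 5.57%. The cause of these shifts was not tested; a left-out library also lowers the number of samples. Depth is known only in relative terms, so no counting error can be given for single values.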

Other observations

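Genes were also binned, after seeing the data, by the mean of their pool differences in controls and under water. The error of this mean is independent of that of the difference of responses only under equal spread. The spread was not equal (pooled SD per group 0.255 to 0.330 log2), so the independence is not complete. The 154 genes that were on average at least 2 log2 higher in the resistant pool had a pool difference of 2.80 log2 in controls and 2.58 under water, a mean difference of responses of -0.22 ± 0.08 log2 (SE over libraries, n = 3 per group), with 66.2% of genes below 0. It was -0.13 with median ratio scaling and -0.26 to -0.16 with a library left out. The 102 genes that were at least 2 log2 higher in the susceptible pool stood at -2.60 log2 in controls and -2.30 under water, a mean difference of 0.30 ± 0.14 (SE, n = 3 per group), with 61.8% above 0. It was 0.19 with median ratio scaling, 0.43 with a pseudocount of 0.1 and 0.22 to 0.43 with a library left out. Both of these sets had a smaller pool difference under water by estimate, and this was not tested apart from the unequal spread. The pool difference was larger in controls at 57.7% of the 907 genes averaging from -2 to -1 log2 and at 60.9% of the 1221 genes from 1 to 2 log2. From -1 to -0.5 log2 it was larger in controls at 38.2% of 4028 genes, and from 0.5 to 1 log2 at 49.8% of 5146. The difference between the bins was not tested.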
